A study of Mus musculus with 6 samples.

Results

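Transcript levels of 10 genes of muscle protein breakdown were followed in tibialis anterior (TA) muscle: the atrophy ubiquitin ligases Fbxo32 (atrogin-1) and Trim63 (MuRF1), the MuRF relatives Trim55 (MuRF2) and Trim54 (MuRF3), the F-box genes Fbxo30, Fbxo21 and Fbxo40, and the FoxO transcription factors Foxo1, Foxo3 and Foxo4. The genes were listed by name and not by a measured value, although earlier results of these data were known at the time. They are 10 of the 55401 genes in the count table, and all 10 passed the filter on low counts that left 17222 genes for testing.

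The libraries came from C57BL/6 mice of the genotype HSA-MCM-Bmal1-/- (iMSBmal1-/-), in which the human skeletal actin promoter drives a tamoxifen-activated Cre that deletes the clock gene Bmal1 in skeletal muscle. Mice were kept to 12 to 16 weeks of age, received 2 mg of tamoxifen a day for 5 days, and 4 weeks after that an adeno-associated virus (AAV) into the TA, which was taken 4 weeks after the injection. Of the 6 libraries, 3 were from muscle given AAV-GFP and 3 from muscle given AAV-RBM20, which carries mouse Rbm20 cDNA under a CMV promoter. All 6 libraries carry the Bmal1 knockout, so the comparison is of RBM20 against GFP in knockout muscle, and no comparison with muscle that kept Bmal1 was made. By the study's methods AAV-RBM20 was injected at the higher dose of the 2 vectors, so transgene and vector dose cannot be told apart. The labels do not say whether the samples of a group came from separate mice, and p-values therefore measure only the spread between these samples, which may be technical.

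Skeletal muscle breaks down its proteins largely through the ubiquitin-proteasome system, in which a ligase picks the substrate, ubiquitin is attached to it and the 26S proteasome degrades it. Atrogin-1 and MuRF1 are known for their induction when muscle wastes after fasting, denervation, disuse or glucocorticoids. FoxO factors that have escaped phosphorylation by Akt enter the nucleus and activate both ligase genes, and MuRF proteins bind titin at the M-band of the sarcomere, the giant protein whose splicing RBM20 controls.

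The sequences before the start sites of 3 ligases are shown because the levels of these genes differed most between the groups among those with a RefSeq promoter entry, and because Trim63 is the textbook target of FoxO factors and of the glucocorticoid receptor. RefSeq windows (build GRCm38.p6) were held for 7 of the 10 genes, and none for Fbxo32, Trim55 and Foxo4. Each line gives the 250 bases upstream of the RefSeq start, 5′ to 3′ on the gene's strand. The RefSeq start of Trim54 lies upstream of its GENCODE start. Capitals mark matches on either strand to GTAAACA (the FoxO element), the glucocorticoid receptor element (GAACA and TGTTC with any 3 bases between), CACGTG (the E-box of clock factors), the MEF2 element (CTA and TAG with any 4 bases between) and TATAAA (the TATA box).
Trim63, chr4:134314870-134315119, plus strand: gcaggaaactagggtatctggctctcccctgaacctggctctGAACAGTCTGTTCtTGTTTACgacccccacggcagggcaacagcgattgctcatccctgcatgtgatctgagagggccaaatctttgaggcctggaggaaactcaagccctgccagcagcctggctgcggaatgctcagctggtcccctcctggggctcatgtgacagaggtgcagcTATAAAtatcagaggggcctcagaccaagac
Trim54, chr5:31116362-31116611, plus strand: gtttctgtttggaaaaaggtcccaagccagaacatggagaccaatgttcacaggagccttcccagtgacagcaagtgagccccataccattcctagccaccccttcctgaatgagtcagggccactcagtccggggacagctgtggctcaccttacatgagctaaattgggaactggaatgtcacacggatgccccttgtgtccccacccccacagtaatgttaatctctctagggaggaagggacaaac
Fbxo40, chr16:36990468-36990717, minus strand: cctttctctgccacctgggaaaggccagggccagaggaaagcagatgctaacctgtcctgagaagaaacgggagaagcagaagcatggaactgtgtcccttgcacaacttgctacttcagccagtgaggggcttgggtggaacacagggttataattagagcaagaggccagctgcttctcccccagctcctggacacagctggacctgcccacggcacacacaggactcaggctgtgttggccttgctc

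In the Trim63 window, with -1 the base before the start, the match to the glucocorticoid receptor element covered positions -208 to -196 and a reverse-strand match to the FoxO element followed at -194 to -188. A TATA box stood at -31 to -26. Over the 32851 RefSeq windows of this length, 0.0396% held the glucocorticoid receptor letters, 3.17% the FoxO letters, 12.4% TATAAA, 6.02% CACGTG and 3.2% the MEF2 letters. The Trim54 and Fbxo40 windows held none of these letters. Both held the general E-box CANNTG, which also takes in CACGTG and was present in 66.2% of windows. Fbxo40 has another RefSeq window, chr16:36979137-36979386, which is not shown and of all these motifs held only CANNTG. A match is a description of the letters and was not tested as a binding site.

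The total count per library was between 41400132 and 54226618. Rbm20 was at 170, 165 and 164 CPM (counts scaled to a common library size after TMM normalisation) in AAV-GFP replicates 1 to 3 and at 499, 545 and 406 CPM in AAV-RBM20 replicates 1 to 3. Its log2 fold change was 1.54 ± 0.15 (SE, n = 3 per group), and edgeR gave an adjusted p of 0.121, or 0.0107 with the replicate number as a block. Endogenous and vector Rbm20 reads cannot be told apart in these counts. The libraries numbered 3 stood apart in both groups: Ttn took 4.48% of the counts in AAV-GFP replicate 3 and 9.05% in AAV-RBM20 replicate 3, against 16.9% to 17.8% in the other 4 libraries, and mitochondrial genes took 12.5% and 11.4% against 6.41% to 7.66%. Values without that pair are therefore given beside the results it moves.

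Fold changes are AAV-RBM20 over AAV-GFP on the log2 scale throughout. The ligase genes Fbxo32, Trim63, Trim54 and Fbxo40, had lower levels in every AAV-RBM20 library than in any AAV-GFP library, with group means that differed by -21.0% to -31.3%, although their ranges overlapped when libraries were scaled to muscle fibre markers instead (described with those markers). The other 6 genes had ranges that overlapped between the groups under TMM. No gene of the 10 passed an adjusted p of 0.05 in the edgeR test, in which 0.00% of the 17222 genes passed. At an unadjusted p under 0.05 the same 4 genes passed, all lower, where 3.82% of all genes tested passed in that direction. Ranges that did not overlap and were lower in AAV-RBM20 were found for 4 of the 10 genes and for 9.04% of all genes tested. Ranges that did not overlap and were higher were found for 0 of the 10 genes and for 7.71% of all genes.

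**Figure D1:**
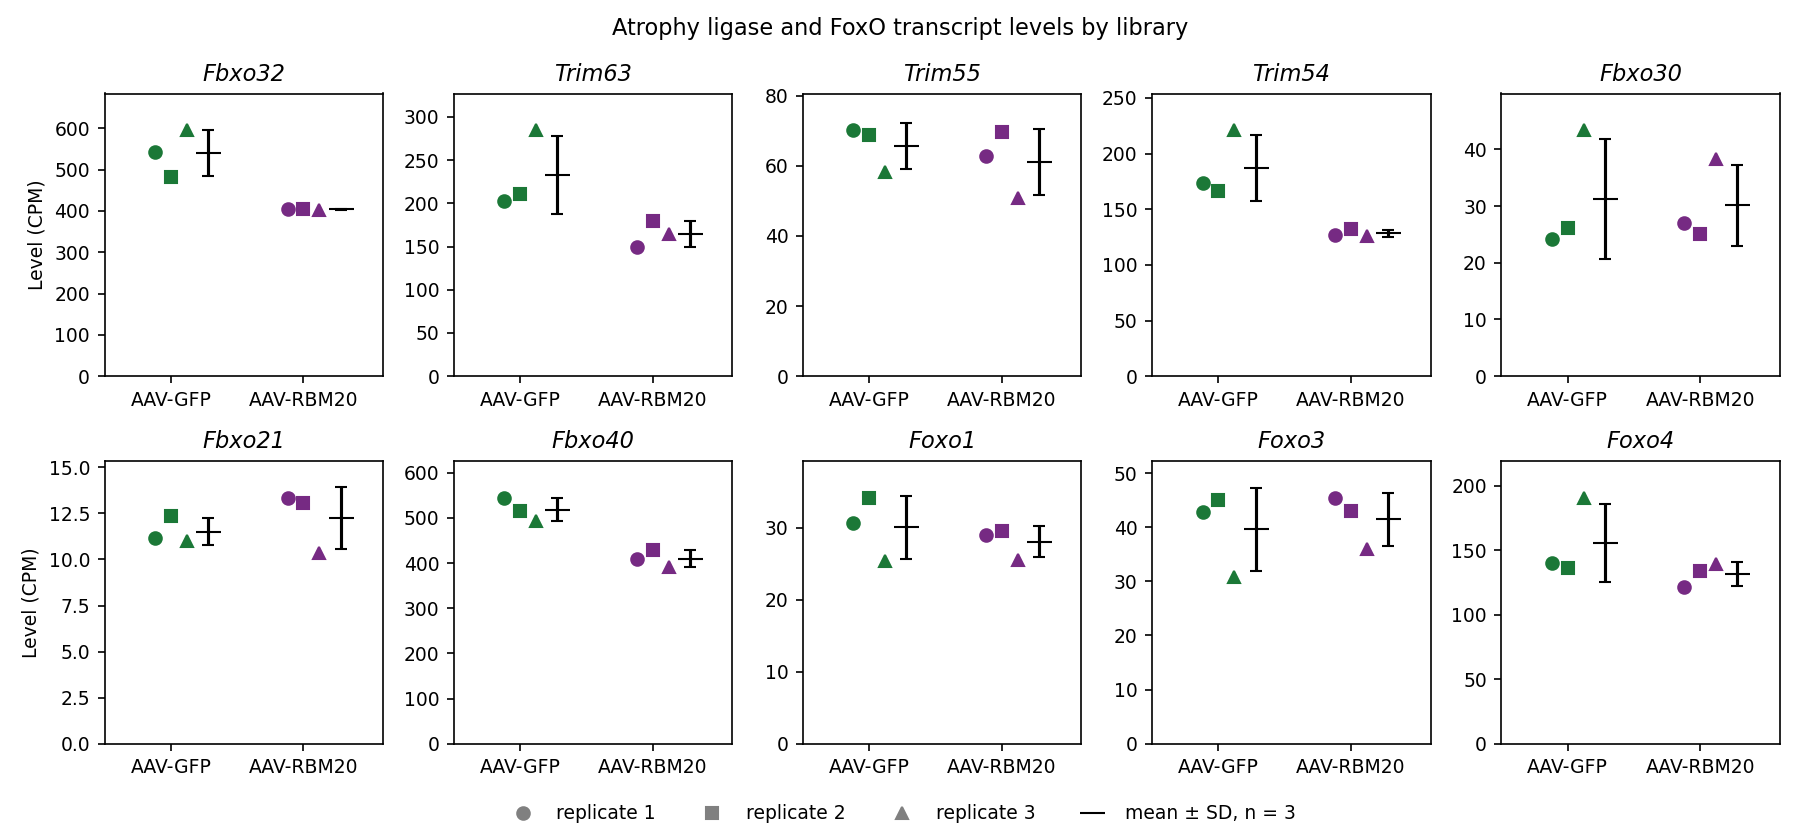
Level of each of the 10 genes in CPM (y axis, from 0) in the 3 AAV-GFP and 3 AAV-RBM20 libraries, with the replicate number as the symbol and the mean ± SD (n = 3) beside the points. The AAV-RBM20 points of Fbxo32, Trim63, Trim54 and Fbxo40 all lie under the AAV-GFP points on this TMM scale, though not when scaled to fibre markers, while the points of the other 6 genes overlap (Trim55 and Fbxo21 separate, higher in AAV-RBM20, under that scaling).

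Fbxo32 encodes atrogin-1, the substrate-binding F-box subunit of an SCF ubiquitin ligase (ENSMUSG00000022358, GRCm38 chromosome 15, 58175879 to 58214932, minus strand). Its level was 542, 483 and 595 CPM in AAV-GFP replicates 1 to 3 and 405, 405 and 403 CPM in AAV-RBM20 replicates 1 to 3. The AAV-RBM20 libraries were nearly equal to each other, and the spread lay in the AAV-GFP group. The means were 540 ± 56.1 and 404 ± 1.41 CPM (SD, n = 3), a difference of -25.1%, and the log2 fold change was -0.42 ± 0.13 with an adjusted p of 0.618 in edgeR. The counts behind these values were 16276 to 31310 per library. An antisense gene, Gm15943, shares 186 exon bases with Fbxo32 and had 4 to 21 counts per library.

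Trim63 encodes MuRF1, a RING-finger ligase of the sarcomere that ubiquitinates thick-filament proteins (ENSMUSG00000028834, chromosome 4, 134315120 to 134329629, plus strand, downstream of the promoter shown). It was at 203, 211 and 284 CPM in AAV-GFP and at 150, 180 and 164 CPM in AAV-RBM20. AAV-GFP replicate 3 stood above all other libraries. The means were 233 ± 44.9 and 165 ± 14.9 CPM (SD, n = 3), a difference of -29.3%. The log2 fold change was -0.50 ± 0.17, with an adjusted p of 0.618 in edgeR, and moved to -0.33 without AAV-GFP replicate 3.

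Among the MuRF relatives, Trim54 and Trim55 differed in their values. Trim54 encodes MuRF3, which associates with microtubules and the Z-disc (ENSMUSG00000062077, chromosome 5, 31116712 to 31137630, plus strand). Trim54 was at 174, 166 and 221 CPM in AAV-GFP and at 127, 132 and 126 CPM in AAV-RBM20. No AAV-RBM20 library reached the lowest AAV-GFP library. The means were 187 ± 29.6 and 128 ± 2.99 CPM (SD, n = 3), a difference of -31.3%, with a log2 fold change of -0.54 ± 0.15 (adjusted p of 0.618 in edgeR). Its exons overlap the antisense gene Gm15469 over 382 bases, which had at most 1 count in a library. Trim55 encodes MuRF2, which links titin signalling to serum response factor (ENSMUSG00000060913, chromosome 3, 19644474 to 19692421, plus strand). It was at 70.1, 68.9 and 58.2 CPM in AAV-GFP and at 62.8, 69.7 and 50.9 CPM in AAV-RBM20, so that replicate 3 was the lowest of each group and the groups overlapped. Its log2 fold change was -0.10 ± 0.16, with an adjusted p of 0.854 in edgeR. The difference between the Trim54 and Trim55 fold changes was not tested.

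Fbxo40 encodes a muscle-restricted F-box protein known to target the insulin receptor substrate IRS1 (ENSMUSG00000047746, chromosome 16, 36963460 to 36990467, minus strand). It was at 544, 516 and 494 CPM in AAV-GFP and at 409, 428 and 391 CPM in AAV-RBM20. Here the spread within the groups was small, with means of 518 ± 25.4 and 409 ± 18.6 CPM (SD, n = 3) and a difference of -21.0%. The log2 fold change was -0.34 ± 0.12, with an adjusted p of 0.618 in edgeR. Fbxo30 encodes MUSA1, a FoxO-dependent ligase of denervated muscle that bone morphogenetic protein signalling holds down (ENSMUSG00000047648, chromosome 10, 11281330 to 11298052, plus strand). It was at 24.3, 26.1 and 43.4 CPM in AAV-GFP and at 27.0, 25.1 and 38.4 CPM in AAV-RBM20. Replicate 3 was the highest of both groups, and the log2 fold change of -0.05 ± 0.26 had an adjusted p of 0.962 in edgeR. Fbxo21 encodes SMART, another F-box ligase that FoxO factors induce in denervated muscle (ENSMUSG00000032898, chromosome 5, 117976730 to 118010201, plus strand), and was at 11.1, 12.4 and 11.0 CPM against 13.3, 13.1 and 10.3 CPM. The groups overlapped, with a log2 fold change of 0.09 ± 0.15 (adjusted p of 0.866 in edgeR).

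The 3 FoxO genes had ranges that overlapped between the groups. Foxo1, an insulin-regulated factor that activates atrophy and fasting genes (ENSMUSG00000044167, chromosome 3, 52268336 to 52353221, plus strand), was at 30.7, 34.2 and 25.4 CPM in AAV-GFP and at 29.0, 29.6 and 25.6 CPM in AAV-RBM20. Foxo3, the factor best known for driving Fbxo32 and autophagy genes (ENSMUSG00000048756, chromosome 10, 42181841 to 42276755, minus strand), was at 42.9, 45.1 and 30.9 CPM in AAV-GFP and at 45.4, 43.1 and 35.9 CPM in AAV-RBM20. Replicate 3 was the lowest library of its group for both genes. Their log2 fold changes were -0.10 ± 0.14 and 0.07 ± 0.18, with adjusted p of 0.849 and 0.925 in edgeR. Foxo1 shares 674 exon bases with the antisense gene Gm20402, which had 0 to 6 counts per library. Foxo4, the X-linked member of the family (ENSMUSG00000042903, chromosome X, 101254528 to 101260873, plus strand), was at 140, 136 and 191 CPM in AAV-GFP and at 121, 134 and 139 CPM in AAV-RBM20. Its AAV-RBM20 libraries were lower than the AAV-GFP library of the same number in 3 of 3 pairs, but the ranges overlapped, and the log2 fold change of -0.24 ± 0.16 had an adjusted p of 0.685 in edgeR. Without AAV-GFP replicate 3 it was -0.07, and without both libraries numbered 3 it was -0.11. These values are of transcripts, and FoxO activity is set largely by phosphorylation and location of the protein, which was not measured here.

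Deviations from the group means correlated at 0.42 between the libraries numbered 1 and at 0.48 between those numbered 3. AAV-GFP replicate 2 correlated at 0.20 with AAV-RBM20 replicate 2 and at 0.22 with AAV-RBM20 replicate 1, so its pairing is unclear. The labels do not give pairs. With same-numbered libraries treated as pairs, the 4 ligases were also read by pair. The AAV-RBM20 minus AAV-GFP differences in log2 CPM for pairs 1 to 3 were -0.42, -0.25 and -0.56 for Fbxo32 and -0.44, -0.24 and -0.79 for Trim63. They were -0.45, -0.33 and -0.81 for Trim54 and -0.41, -0.27 and -0.34 for Fbxo40. All 12 differences were below 0, as any pairing must give when the ranges do not overlap, so the signs add nothing to that result. Pair 2 was the smallest for each gene and pair 3 the largest for all but Fbxo40. With the replicate number as a block, edgeR gave adjusted p of 0.138 for Fbxo32, 0.132 for Trim63, 0.105 for Trim54 and 0.158 for Fbxo40, where 0.145% of all genes passed. DESeq2 with the same block gave adjusted p of 0.0155, 0.0102, 0.00275 and 0.0484 in that order, so that 4 of the 10 genes passed, all lower, beside 2.47% of the 13549 genes with an adjusted p that passed in that direction. DESeq2 without the block passed 0 of the 10 genes and 0.436% of all genes. With 3 libraries against 3, the exact two-sided permutation test cannot go below p = 0.1, and it gave 0.1 for each of the 4 ligases and 0.2 to 0.9 for the other 6 genes. For the 4 ligases this value too is fixed by ranges that do not overlap.

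Without both libraries numbered 3, the log2 fold change was -0.33 for Fbxo32, -0.32 for Trim63, -0.39 for Trim54 and -0.33 for Fbxo40. In this edgeR fit of 2 libraries against 2, adjusted p was 0.0316 for Fbxo32, 0.00819 for Trim54, 0.0221 for Fbxo40 and 0.0743 for Trim63, and 2.05% of all genes passed as lower. The differences of Fbxo32, Trim63 and Trim54 were smaller than with all libraries, and AAV-GFP replicate 3 was the highest library for each of them. That of Fbxo40 was nearly the same.

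**Figure D2:**
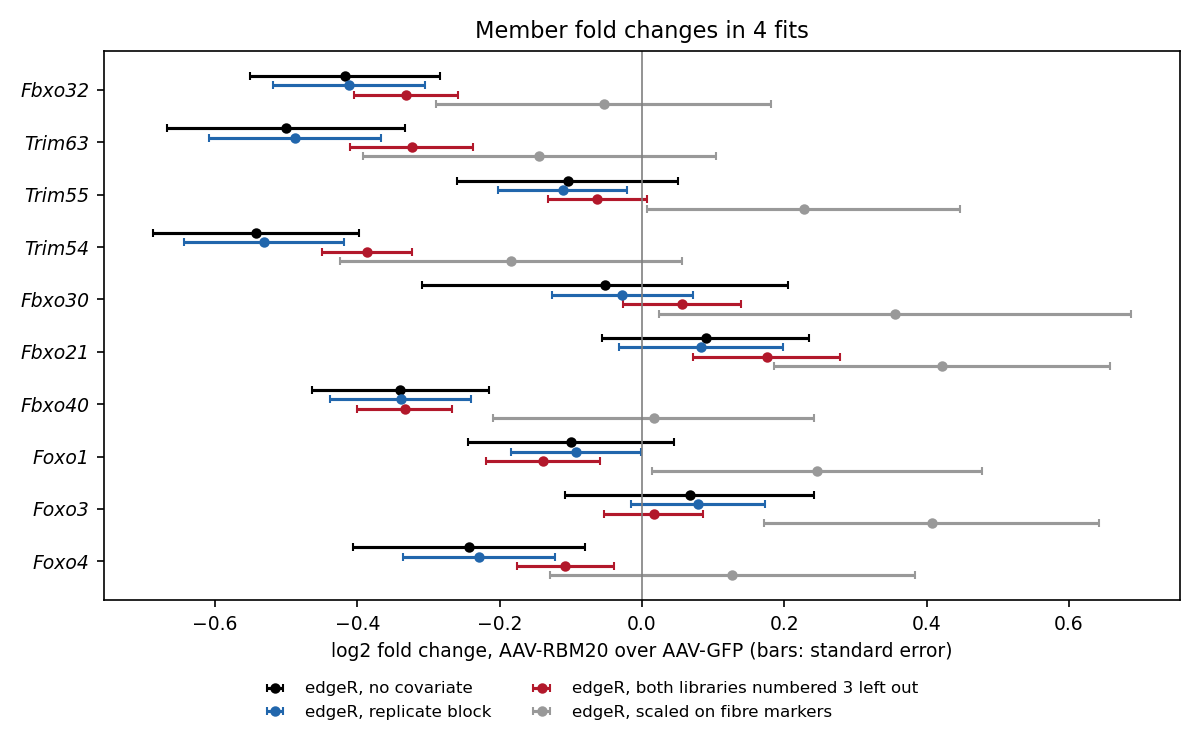
Log2 fold change (x axis, AAV-RBM20 over AAV-GFP) of each gene with its standard error as the bar, in 4 edgeR fits: no covariate, replicate block, both libraries numbered 3 left out, and library sizes set by muscle fibre markers. Fbxo32, Trim63, Trim54 and Fbxo40 lie below 0 in the first 3 fits, and all 10 genes shift to the right when scaled on the fibre markers.

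The 10 genes spanned a wide range of levels when counts were divided by exon length. In AAV-GFP muscle Trim54 was the most abundant, at 130 ± 20.6 CPM per kb of merged exons (SD, n = 3). Fbxo40 followed at 93.9 ± 4.61, Trim63 at 81.9 ± 15.8 and Fbxo32 at 77.4 ± 8.04 CPM per kb. Fbxo40 and Trim63 did not differ beyond their ranges, nor did Trim63 and Fbxo32. Foxo4, at 44.7 ± 8.68 CPM per kb, was the most abundant FoxO gene, against 5.23 ± 1.01 for Foxo3 and 3.47 ± 0.508 for Foxo1. Trim55 was at 24.7 ± 2.47, Fbxo30 at 6.01 ± 2.03 and Fbxo21 at 2.08 ± 0.134 CPM per kb, with the ranges of Fbxo30 and Foxo3 overlapping. In AAV-RBM20 muscle the order was the same except that Fbxo32 (58.0 CPM per kb) and Trim63 (57.9) were level, with overlapping ranges. The genes that lay lower in every AAV-RBM20 library were thus the 4 most abundant of the 10 per length.

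**Figure D3:**
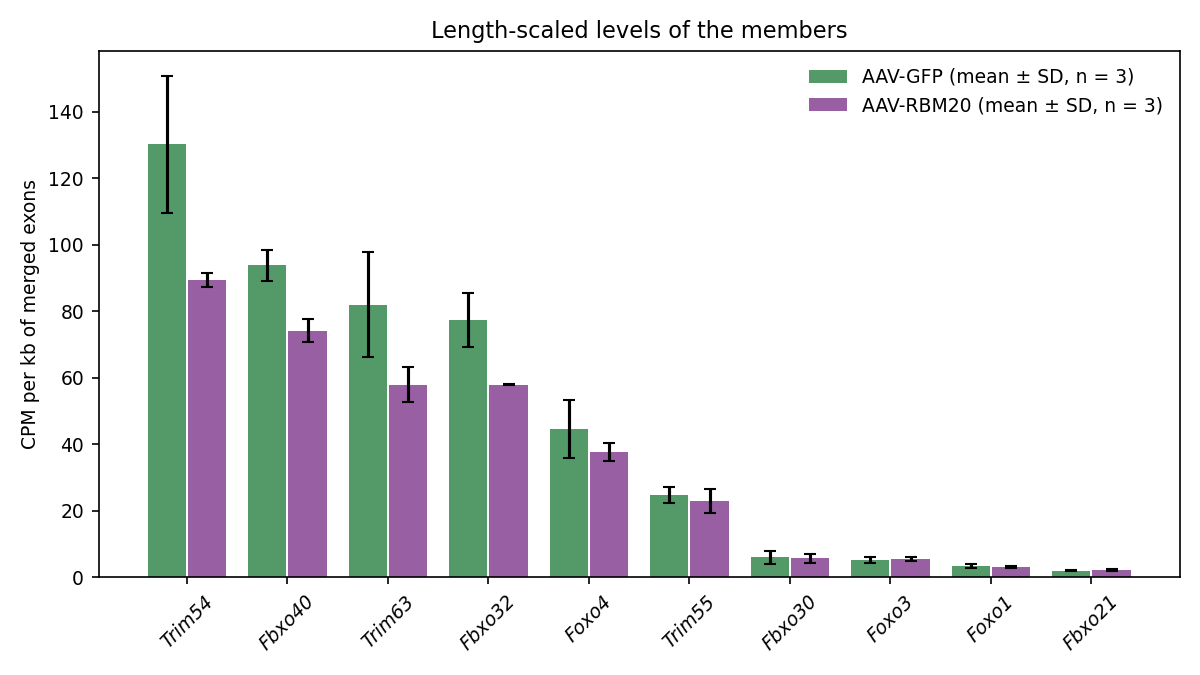
Mean level in CPM per kb of merged exons (y axis, from 0) of each gene in AAV-GFP and AAV-RBM20 muscle, with bars for the SD (n = 3), ordered by the AAV-GFP mean. Trim54, Fbxo40, Trim63 and Fbxo32 stand highest, and Foxo4 stands above the other FoxO genes and Trim55.

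Lists of the wider pathway were then read from the same fit, 158 distinct genes in all, of which 0 passed an adjusted p of 0.05 in edgeR with or without the block. The 10 genes themselves had 8 log2 fold changes below 0 and a median of -0.17, where 48.7% of all genes were below 0 with a median of 0.01. Each list is described by its counts and its median, beside those shares over all genes. List counts of ranges that did not overlap stand beside 9.04% of all genes tested for lower ranges and 7.71% for higher ones. Directions are those under TMM, and where scaling to muscle fibre markers turns them, under which the median of all genes is 0.37, the count is given beside them.

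The machinery downstream of the ligases lay mostly below 0. Of 32 proteasome genes, 31 of them subunits of the 26S particle and the last the activator Psme4, all 32 were lower in AAV-RBM20, with a median of -0.25 and non-overlapping lower ranges for 12, while under fibre marker scaling 1 was lower and the median was 0.13. Their summed level was 2799, 2702 and 3750 CPM in AAV-GFP and 2470, 2505 and 2743 CPM in AAV-RBM20. AAV-GFP replicate 3 stood far above the rest, and the sums of the groups overlapped slightly. Without that library 26 of the 32 were lower and the median was -0.10, and without both libraries numbered 3 there were 30 and -0.12, with the lid gene Psmd7 passing in edgeR (-0.25, adjusted p of 0.0489). Psma5, of the catalytic core's outer ring, was at 25.9 ± 4.93 against 20.7 ± 0.956 CPM (log2 fold change -0.32 ± 0.16), and the ATPase Psmc3 at 130 ± 23.2 against 104 ± 6.16 CPM (-0.32 ± 0.15), means ± SD of 3 libraries. Of 17 genes of ubiquitin and its conjugating or deubiquitinating enzymes, 16 were lower, 6 with non-overlapping ranges, with a median of -0.23 (3 lower and 0.14 under fibre marker scaling). That median was -0.15 without AAV-GFP replicate 3 and -0.12 without both libraries numbered 3. Ubb, a ubiquitin precursor gene, was at 304, 331 and 443 CPM in AAV-GFP and at 253, 273 and 287 CPM in AAV-RBM20, ranges that did not overlap. Its log2 fold change was -0.41 ± 0.17, with an adjusted p of 0.618 in edgeR. In DESeq2 with the block Ubb and the proteasome lid gene Psmd8 passed, at adjusted p of 0.0348 and 0.0387.

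Of 21 other ubiquitin ligase genes of muscle, 2 had non-overlapping lower ranges, near the share of 9.04% over all genes tested. In this list 18 were lower, with a median of -0.12 (1 lower and 0.24 under fibre marker scaling). Leaving out AAV-GFP replicate 3 gave a median of -0.03, leaving out AAV-RBM20 replicate 3 gave -0.02 with 13 lower, and leaving out both gave -0.03 with 13 lower. Asb2, a cullin ligase subunit of muscle that regulates muscle mass, was at 850, 889 and 804 CPM in AAV-GFP and at 580, 651 and 454 CPM in AAV-RBM20. Every AAV-RBM20 library was under every AAV-GFP library, with a log2 fold change of -0.59 ± 0.17. Its adjusted p was 0.618 in edgeR with no covariate, 0.0897 with the block, 0.00693 without both libraries numbered 3, and 6.40e-05 in DESeq2 with the block. Traf6, an atrophy-related RING ligase, was at 28.0 ± 1.04 against 25.7 ± 0.531 CPM (SD, n = 3), a log2 fold change of -0.12 ± 0.11. Of 15 autophagy genes, 11 were lower, 4 with non-overlapping ranges, with a median of -0.12 (0 lower and 0.26 under fibre marker scaling). Sqstm1, the autophagy receptor p62, which also binds MuRF proteins, and the kinase gene Ulk2 had log2 fold changes of -0.31 ± 0.13 and -0.23 ± 0.14. Leaving out AAV-GFP replicate 3 gave an autophagy median of -0.08, leaving out AAV-RBM20 replicate 3 gave -0.06 and leaving out both gave -0.05. In that last fit the LC3 gene Map1lc3a passed in edgeR as higher (0.40, adjusted p of 0.0191), where with all libraries it was at 0.05 ± 0.25.

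The genes around the FoxO factors lay on both sides of 0 under TMM, and almost all above it under fibre marker scaling. Of 15 metabolic and stress genes that FoxO factors are known to regulate, 8 were lower and 7 higher, with a median of -0.00 (0 lower and 0.38 under fibre marker scaling), and 1 in each direction had ranges that did not overlap. Sesn3, a stress-induced inhibitor of mTORC1 signalling, was at 47.6, 49.2 and 35.2 CPM in AAV-GFP and at 56.5, 54.2 and 50.6 CPM in AAV-RBM20 (log2 fold change 0.29 ± 0.16). Mitochondrial superoxide dismutase, Sod2, had one of -0.15 ± 0.12. Cited2, a transcriptional coregulator, passed in edgeR as higher without both libraries numbered 3 (0.49, adjusted p of 0.0147), though its ranges overlapped over all 6 libraries. Leaving out single libraries moved this list between 5 and 10 lower of 15. Of 21 upstream kinases and cofactors, 10 were lower and 11 higher, with a median of 0.02 (1 lower and 0.38 under fibre marker scaling). Foxo6, the brain-enriched family member that was placed in this list, was at 8.68, 8.86 and 6.90 CPM in AAV-GFP and at 12.6, 13.9 and 9.82 CPM in AAV-RBM20, with a log2 fold change of 0.57 ± 0.18. It passed in DESeq2 with the block at an adjusted p of 0.0393 and in edgeR without the libraries numbered 3 at 0.0131, but not in edgeR with all 6 libraries, at 0.618. Akt2, a kinase that keeps FoxO factors out of the nucleus, was at 233, 230 and 274 CPM against 180, 208 and 178 CPM, with a log2 fold change of -0.38 ± 0.14. For both genes the groups did not overlap, with Foxo6 higher and Akt2 lower in AAV-RBM20.

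Regulators that act on the ligase genes, including the repressor Dach2, had 11 lower and 5 higher of 16, with a median of -0.08 (0 lower and 0.30 under fibre marker scaling), moving to -0.04 without AAV-RBM20 replicate 1, -0.13 without AAV-GFP replicate 1 and -0.05 without both libraries numbered 3. Myog, which activates Fbxo32 and Trim63 in denervated muscle, was at 1.98 ± 0.164 against 2.88 ± 0.305 CPM (SD, n = 3). Its log2 fold change was 0.54 ± 0.21, with an adjusted p of 0.618 in edgeR. Smad3, an effector of myostatin signalling, had one of -0.33 ± 0.13. The glucocorticoid receptor gene Nr3c1 and its targets Klf15, Fkbp5 and Tsc22d3, chosen after their values were seen because the Trim63 promoter holds a receptor element, had overlapping ranges and log2 fold changes of -0.10, -0.06, -0.17 and -0.36. Of 12 genes of the titin M-band and of MuRF partners, 5 were lower and 7 higher, with a median of 0.05 (1 lower and 0.34 under fibre marker scaling). Single libraries decided the direction of this list: 8 were lower without AAV-GFP replicate 3 (median -0.16), without AAV-RBM20 replicate 1 (-0.08) or without AAV-RBM20 replicate 2 (-0.11), and the median was 0.27 without AAV-RBM20 replicate 3, 0.17 without AAV-GFP replicate 1 and 0.11 without AAV-GFP replicate 2. In that list Srf, serum response factor, had a log2 fold change of -0.41 ± 0.16, and Ttn one of 0.05 ± 0.55, with a wide error. Obsl1, the M-band protein obscurin-like 1, passed in edgeR as higher without both libraries numbered 3 (0.31, adjusted p of 0.0286).

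Transcripts of proteins reported as substrates of atrogin-1 or MuRF1 had a median of -0.32, with 9 lower and 2 higher of 11 and 5 non-overlapping lower ranges (5 lower and a median of 0.04 under fibre marker scaling). Ckm is in this list and also among the fibre markers that set that scaling, so the scaled values are not independent of the list. The fast troponin gene Tnni2 was at 2181, 2079 and 3226 CPM in AAV-GFP and at 1389, 1570 and 1803 CPM in AAV-RBM20, a log2 fold change of -0.65 ± 0.21. The slow-type myosin-binding gene Mybpc1 was at 1536, 1541 and 1350 CPM and at 2196, 1747 and 2317 CPM, a log2 fold change of 0.50 ± 0.16. Neither pair of ranges overlapped, and both passed in DESeq2 with the block, at adjusted p of 4.13e-05 and 0.0139, though not in edgeR with all 6 libraries, at 0.618. Tnni2 also passed in edgeR without both libraries numbered 3 (-0.52, adjusted p of 0.00693). Vim, of the intermediate filament vimentin, lay the other way: it passed as higher in DESeq2 with the block (0.42, adjusted p of 0.0303) and in edgeR without both libraries numbered 3 (0.43, 0.0164), with overlapping ranges over all 6 libraries. The list median moved to -0.19 without AAV-GFP replicate 3 and to -0.14 without both libraries numbered 3. Substrate transcripts say nothing of substrate protein.

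**Figure D4:**
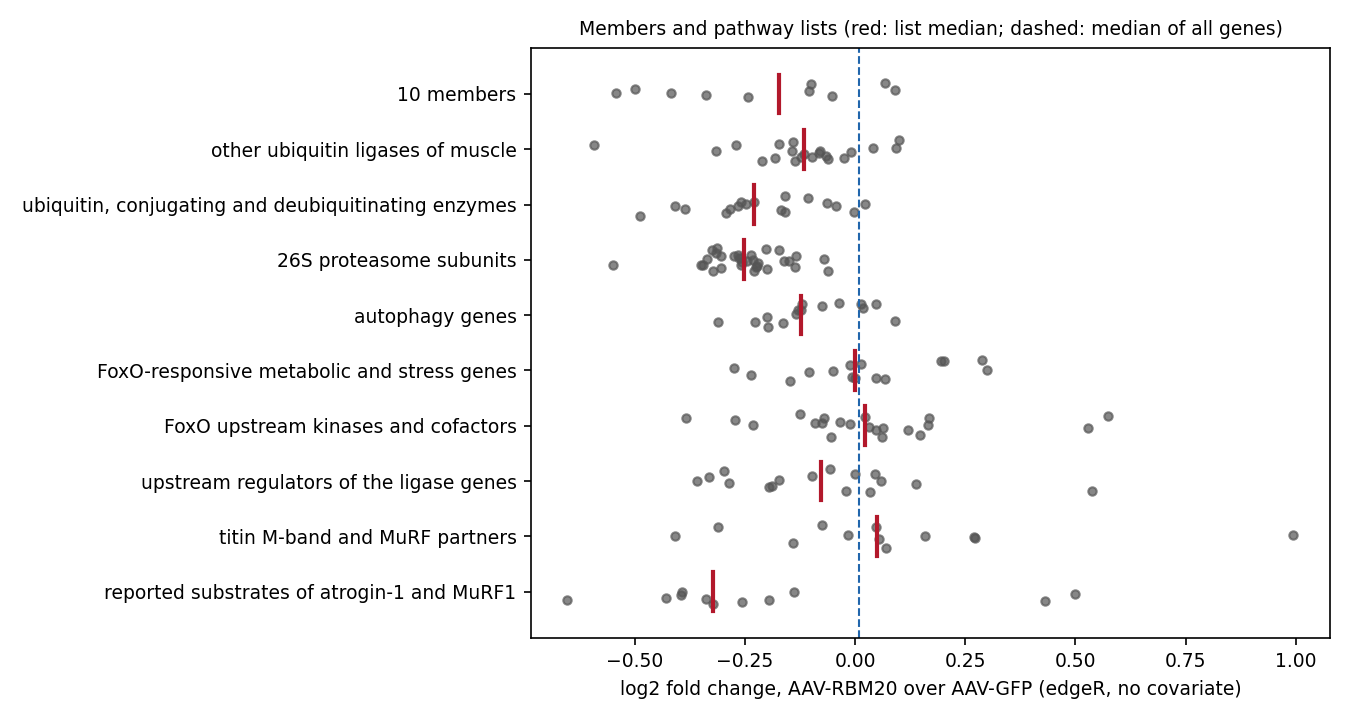
Log2 fold change (x axis, AAV-RBM20 over AAV-GFP, edgeR with no covariate) of each of the 10 genes and of each gene in 9 pathway lists, 1 point per gene, with the list median in red and the median of all genes dashed. All 32 proteasome points lie left of 0 on this TMM scale (1 of them under fibre marker scaling), and the FoxO-responsive and FoxO upstream lists straddle it under TMM (0 of 15 and 1 of 21 points below 0 under fibre marker scaling).

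Markers of fibres and of other cell types also had different levels in the groups. Whether these differences bear on the ligase values was not tested. The labelled tissue was borne out by its markers, as the 7 muscle fibre markers alone summed to 88837 to 96810 CPM in AAV-GFP and to 56541 to 85235 CPM in AAV-RBM20. The lowest sum was that of AAV-RBM20 replicate 3, the sums did not overlap, and 5 of the 7 were lower, with a median log2 fold change of -0.34. None of the 7 passed in edgeR with all libraries, with or without the block. In DESeq2 with the block 2 of the 7 passed, where 3.84% of genes with an adjusted p did. In edgeR without both libraries numbered 3, 1 passed, where 4.00% did. The fibre marker difference was smaller without the pair that stood apart. The median was -0.17 without AAV-GFP replicate 3, and -0.06 with 4 lower and 3 higher without both libraries numbered 3. The fast fibre markers Tnnt3 and Pvalb had ranges that did not overlap, at -0.60 ± 0.18 and -0.52 ± 0.24, while the oxidative myosin gene Myh2 was at 576, 445 and 31.6 CPM in AAV-GFP and at 792, 416 and 574 CPM in AAV-RBM20. Macrophage markers were all higher, 9 of 9, with a median of 0.82 and sums of 33.5 to 110 CPM in AAV-GFP against 72.8 to 173 CPM in AAV-RBM20. Of these only Ptprc, the pan-leukocyte marker, passed in edgeR with the block, at an adjusted p of 0.0478. In DESeq2 with the block 5 of the 9 passed, and 8 of the 9 in edgeR without both libraries numbered 3, where their median was 1.10. In these fits, in that order, 0.145%, 3.84% and 4.00% of genes with an adjusted p passed in either direction. The macrophage median was 0.35 without AAV-RBM20 replicate 3 and 1.64 without AAV-GFP replicate 3, with 9 of 9 higher in both. Fibro-adipogenic markers were higher for 5 of 5, with sums of 489 to 1009 against 824 to 1074 CPM, and 3 of the 5 passed in edgeR without both libraries numbered 3. Their median, 0.29 with all libraries, was 0.73 without AAV-GFP replicate 3 and 0.13 without AAV-GFP replicate 2. Satellite cell and endothelial markers were higher for 2 of 2 and 4 of 4, with overlapping sums. Without AAV-GFP replicate 3, and without both libraries numbered 3, endothelial markers were lower for 3 of 4. Adipocyte markers were lower for 4 of the 4 tested (3 under fibre marker scaling), but higher for 4 of 4 without AAV-GFP replicate 3, and Schwann cell and erythroid markers lay on both sides of 0. The macrophage marker with the lowest level, Itgam, was at 0.0738 to 0.342 CPM in AAV-GFP, and no macrophage marker was at 0 in any library. In bulk muscle, fewer cells of a type and less RNA per cell cannot be told apart.

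**Figure D5:**
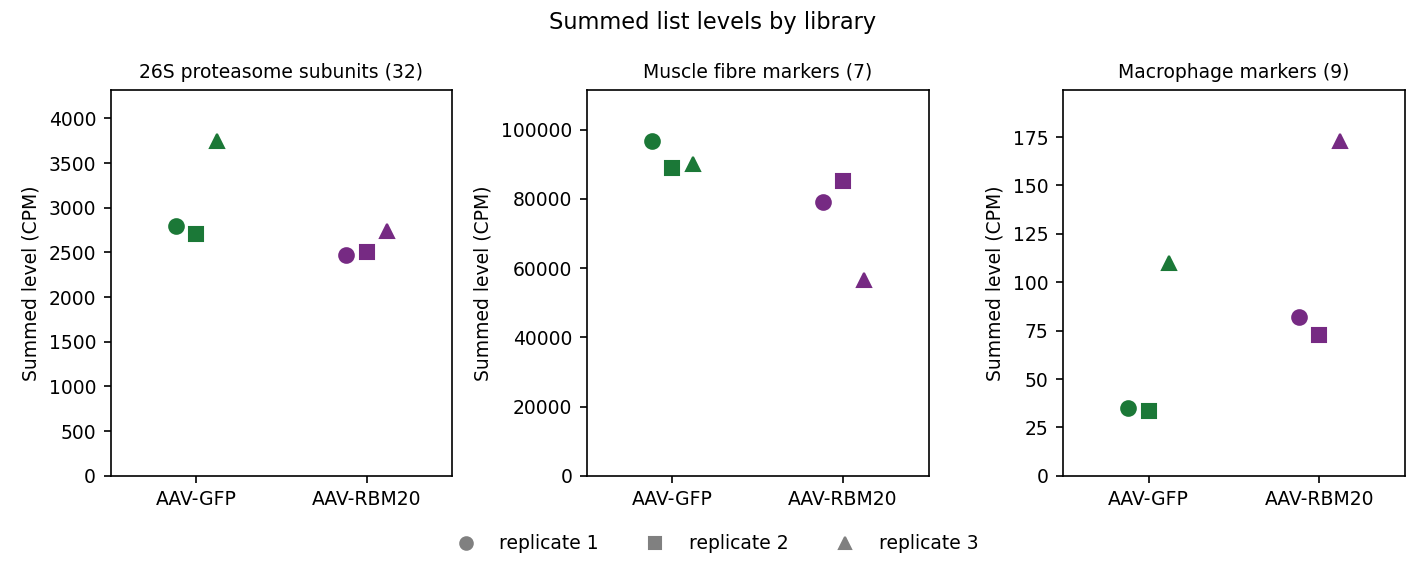
Summed level in CPM (y axis, from 0) of the 32 proteasome genes, the 7 muscle fibre markers and the 9 macrophage markers in each library, with the replicate number as the symbol. AAV-GFP replicate 3 is highest for the proteasome, AAV-RBM20 replicate 3 is lowest for fibre markers and highest for macrophage markers.

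Each library was also scaled by its summed fibre markers, an alternative added after these sums were seen, to set the ligases against fibre transcripts. The median log2 fold change of all genes then moved from 0.0090 to 0.37. Fbxo32, Trim63, Trim54 and Fbxo40 came to -0.05, -0.14, -0.18 and 0.02, their ranges overlapped between the groups, and 3 of the 10 genes were below 0, where 9.15% of all genes were. Trim55 and Fbxo21 then had higher levels in every AAV-RBM20 library than in any AAV-GFP library, with log2 fold changes of 0.23 ± 0.22 and 0.42 ± 0.24 and adjusted p of 0.557 and 0.393 in edgeR. As this scaling moves all genes together, the ligases' distance from the median of all genes is nearly the same by construction. Whether fibre makeup or the other cell types play a part in the ligase values was not tested.

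The genes whose levels followed Trim63 and Fbxo32 most closely over the 6 libraries were found among 7335 genes with a mean of at least 10 CPM. For Trim63 these were Pdrg1, Ppp1r3c, a glycogen-targeting subunit of protein phosphatase 1, and Anapc13, a subunit of the anaphase-promoting complex, with Pearson r of 0.999, 0.996 and 0.996 on log2 CPM. For Fbxo32 they were Apmap, Pygo1 and Zfp652, with r of 0.998, 0.996 and 0.996. With 6 libraries that share 2 groups and a pair that stands apart, 250 genes reached r of at least 0.95 with Trim63 and 149 with Fbxo32, so that these names describe the libraries and no more.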

How the data were processed

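RNA from the TA muscle of 6 samples (3 AAV-GFP, 3 AAV-RBM20, grouped by the labels) was sequenced from ribosomal RNA-depleted, stranded libraries. HISAT2 (build mm10) and HTSeq were used by the authors, who deposited unnormalised counts per Ensembl gene. Tool versions, annotation release and strand setting are not given in the sources used here, so genes with an antisense partner are uncertain to that extent. A second table of DESeq2-normalised values was not used. Symbols (55141 of 55401 identifiers) and positions came from GENCODE M21, GRCm38.

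Groups were compared with edgeR 4.0.16 (filterByExpr, TMM, robust glmQLFit, glmQLFTest) in R 4.3.3, with Benjamini-Hochberg adjustment over 17222 genes and a threshold of 0.05. CPM used TMM-scaled library sizes. The pipeline was tested on simulated data. DESeq2 1.42.0, limma-voom (limma 3.58.1), other normalisations and filters, a replicate block and left-out libraries were alternatives. Same-numbered libraries, by number in the titles, had correlated deviations from their group means (r = 0.42, 0.20 and 0.48), and were treated as pairs, although AAV-GFP 2 and AAV-RBM20 1 also correlated at 0.22. Chi-square per degree of freedom between replicates was 15.1 to 545, so none was a copy of another.

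The genes and lists were chosen with earlier results of these data known. Named were all 10 genes, Rbm20 and Ttn, the 3 genes most correlated with Trim63 and Fbxo32, and from each list the genes past the threshold or else the 2 largest changes with non-overlapping ranges and a mean of at least 1 CPM; other names were chosen after their values were seen. A gene that this rule names is not reported here.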

Additional observations from a re-analysis of the deposited data

How the results depend on the processing

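Of 190 recomputed results, 170 kept their direction and their side of the threshold, 13 reversed direction and 7 came to pass the threshold. The number of genes called over the whole table, 0 in edgeR with no covariate (1360 at an unadjusted p under 0.05), was 8 with no filter on low counts, 25 with the replicate block, 75 with DESeq2, 520 with DESeq2 and the block, 3 with fibre marker scaling and 690 without both libraries numbered 3. Leaving out any 1 library gave 0 to 0. The number of the 10 genes called was 4 with DESeq2 and the block and 3 without both libraries numbered 3, and 0 under every other alternative, the edgeR block and each left-out library (0 to 0) included. Of the 158 pathway list genes, 8 were called with DESeq2 and the block, where 3.84% of genes with an adjusted p were called. Without both libraries numbered 3, 9 were called, where 4.00% of all genes were. With any 1 library left out, 0 to 0 of the list genes were called. The replicate block in edgeR changed no call among the 10 genes or the list genes. The number of the 10 genes above 0, 2 in the reported fit, was 7 with fibre marker scaling, 1 without both libraries numbered 1, and 2 to 3 with any 1 library left out.

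Fbxo32, Trim63 and Trim54 stayed below 0 in 20 of 20 settings, between -0.51 and -0.05, -0.65 and -0.14, and -0.65 and -0.18, and Fbxo40 in 19 of 20. Fibre marker scaling reversed Trim55 (0.23), Fbxo30 (0.36), Fbxo40 (0.016), Foxo1 (0.25) and Foxo4 (0.13). Upper quartile factors put Fbxo30 at 1.64e-05, leaving out both libraries numbered 3 put it at 0.056, and leaving out both numbered 1 put Fbxo21 at -0.0059. Leaving out AAV-GFP replicate 3 reversed Fbxo30 (0.26) and Foxo3 (-0.086), AAV-RBM20 replicate 1 or 2 reversed Fbxo30 (0.028 and 0.060), and AAV-RBM20 replicate 3 reversed Trim55 (0.020). With any 1 library left out Trim55 ranged from -0.21 to 0.020, Fbxo30 from -0.25 to 0.26 and Foxo3 from -0.086 to 0.17, while Foxo4 ranged from -0.33 to -0.074 and Foxo1 from -0.21 to -0.0023. None of these values passed the threshold, and the cause of the shifts was not tested. The 4 ligases had 5299 to 31310 counts per library.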
